A study of Mus musculus with 22 samples.

Results

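Hippocampal RNA of TgproNGF#3 mice was compared with that of wild type (WT) mice at 1 month of age, on 4 arrays of each genotype out of the 22 arrays (3 ages) of the series. The members are the arrays labelled as hippocampus at 1 month, and each array carried RNA from the right hippocampus of 1 mouse. TgproNGF#3 is 1 transgenic line in which the mouse Thy1.2 promoter, active in neurons, drives the cDNA of a mouse neurotrophin precursor whose furin cleavage site was mutated, followed by an internal ribosome entry site and EGFP. WT mice were of the same C57Bl/6xDBA/2 background and did not carry the transgene. All 8 mice were untreated males. At 3 months there were 4 male mice of each genotype and at 12 months 3 females of each, and each age was hybridised on a slide of its own, so that age cannot be told apart from slide and, at 12 months, from sex.

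Neurotrophins are made as precursors, which furin and other convertases cut to the mature factors. Mature neurotrophins act through Trk receptors, which support the survival of neurons, whereas uncut precursors bind the pair p75NTR and sortilin and are known for the opposite effect on neuron survival and on spines. The hippocampus holds granule neurons, pyramidal neurons of the CA fields, GABAergic interneurons and glia, and its myelin is still being laid down in a 1-month-old mouse.

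A level here is the log2 signal of a probe minus the 75th percentile of its array, and a log2 fold change is the mean level in TgproNGF#3 minus the mean level in WT. Probes with more than a 2-fold change and a p below 0.05 in the moderated test of limma, before any adjustment, were called up-regulated or down-regulated. The promoters of 3 genes are shown first (RefSeq, GRCm38.p6, 250 bases before to 50 after the start site, 5′ to 3′ on the gene's strand), because Syt10 was the named gene with the largest fall, Klk6 was the named gene up-regulated at both 1 and 3 months, and Ch25h, down-regulated at both ages, was the 1 down-regulated gene whose promoter held the cyclic AMP response element TGACGTCA. Capitals mark that element and the TATA motif TATAAA.
Syt10 promoter, chr15:89841811-89842110, minus strand: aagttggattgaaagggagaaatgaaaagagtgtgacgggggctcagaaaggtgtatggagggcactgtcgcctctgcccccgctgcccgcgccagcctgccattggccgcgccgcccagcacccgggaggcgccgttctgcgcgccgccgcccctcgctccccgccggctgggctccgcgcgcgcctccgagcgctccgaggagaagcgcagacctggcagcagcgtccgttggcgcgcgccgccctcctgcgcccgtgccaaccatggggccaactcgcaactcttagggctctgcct
Klk6 promoter, chr7:43824294-43824593, plus strand: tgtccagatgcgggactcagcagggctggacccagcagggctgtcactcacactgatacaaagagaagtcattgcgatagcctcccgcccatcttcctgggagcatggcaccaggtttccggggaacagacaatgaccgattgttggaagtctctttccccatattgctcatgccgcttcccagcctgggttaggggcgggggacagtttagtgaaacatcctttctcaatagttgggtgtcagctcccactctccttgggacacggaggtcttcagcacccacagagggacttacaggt
Ch25h promoter, chr19:34475099-34475398, minus strand: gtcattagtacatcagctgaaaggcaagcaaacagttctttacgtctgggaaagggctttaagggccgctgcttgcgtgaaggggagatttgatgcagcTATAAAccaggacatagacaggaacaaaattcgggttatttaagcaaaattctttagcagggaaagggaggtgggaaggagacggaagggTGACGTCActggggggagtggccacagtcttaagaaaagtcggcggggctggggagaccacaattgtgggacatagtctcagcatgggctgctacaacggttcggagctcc
The promoters of Syt10 and Klk6 held neither motif. Searched on both strands, TGACGTCA stood in 1.88% of the 27025 promoters of the table, in 0 of 37 promoters of up-regulated genes and in 1 of 29 of down-regulated genes. TATAAA stood in 14.2% of all promoters, in 3 of the 37 and in 4 of the 29. The E-box CACGTG stood in 7.24% of all, in 2 of the 37 and in 1 of the 29. These matches describe the letters of the window only.

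Few probes differed between the genotypes at 1 month. Of 40536 probes tested, 98 were up-regulated (0.242%) and 133 down-regulated (0.328%) in TgproNGF#3. None had a Benjamini-Hochberg adjusted p below 0.05 in limma (the smallest was 1). An unadjusted p below 0.05 was found for 1405 probes (3.47%), a share under the 0.05 that chance alone gives. The calls are therefore unadjusted calls, and no gene below passed the adjusted test. Blocked by replicate number, the fit gave other counts: 221 probes were up-regulated and 231 down-regulated, 2260 had an unadjusted p below 0.05 and the smallest adjusted p was 0.41. Both fits shared 197 calls. The counts rested on single arrays: 47 probes were up-regulated without TgproNGF#3 replicate 3, 224 without TgproNGF#3 replicate 1 and 189 without TgproNGF#3 replicate 4, and the down-regulated probes numbered 53 when WT replicate 3 was left out, 83 when TgproNGF#3 replicate 1 was, 223 and 226 when WT replicates 2 and 4 were, each alone, and 262 when TgproNGF#3 replicate 3 was. Non-overlapping groups, where every measured TgproNGF#3 array lay on one side of every measured WT array, were found for 1347 probes (3.32%), among them 129 of the 231 called probes. Of the 1347, 781 were measured on all 8 arrays, and for these the exact two-sided permutation test over the 70 labellings gives its smallest p, 0.029. The rest lack values on some arrays and were not given that test. Among the 36103 probes measured on all 8 arrays, 781 is a smaller share than the 0.029 that random labels give. A lack of overlap in a gene below is therefore no more frequent than chance makes it. These permutations ignore the replicate numbers; within same-numbered pairs the smallest two-sided p that permutations can give is 0.125, so no probe could pass 0.05.

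The calls came mostly from dim probes. The group of probes with the lowest mean level, of 4 equal groups, held 61 up-regulated and 75 down-regulated probes, and the brightest group held 3 and 2. They were also unevenly spread over kinds of transcript: probes for protein-coding genes held 40 up- and 34 down-regulated probes of 22195, and probes that the files identify by mm9 coordinates in place of a gene held 37 and 55 of 9880. Of the 46 up-regulated and 44 down-regulated probes of named genes, 34 and 26 lost their call when some single array was left out. The called probes named 45 genes that were up-regulated and 44 that were down-regulated. Over all probes the median log2 fold change was 0.07, with 63.8% of probes above 0 and a median standard error of 0.22. The split of the calls depended on the scaling: 42.4% were up-regulated here, 52.4% with arrays aligned to their median, 60.3% with quantile normalization, 29.4% with the percentile over all spots, 60.6% with dim spots kept, 16.7% with normexp and 23.5% in the authors' series matrix.

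**Figure D1:**
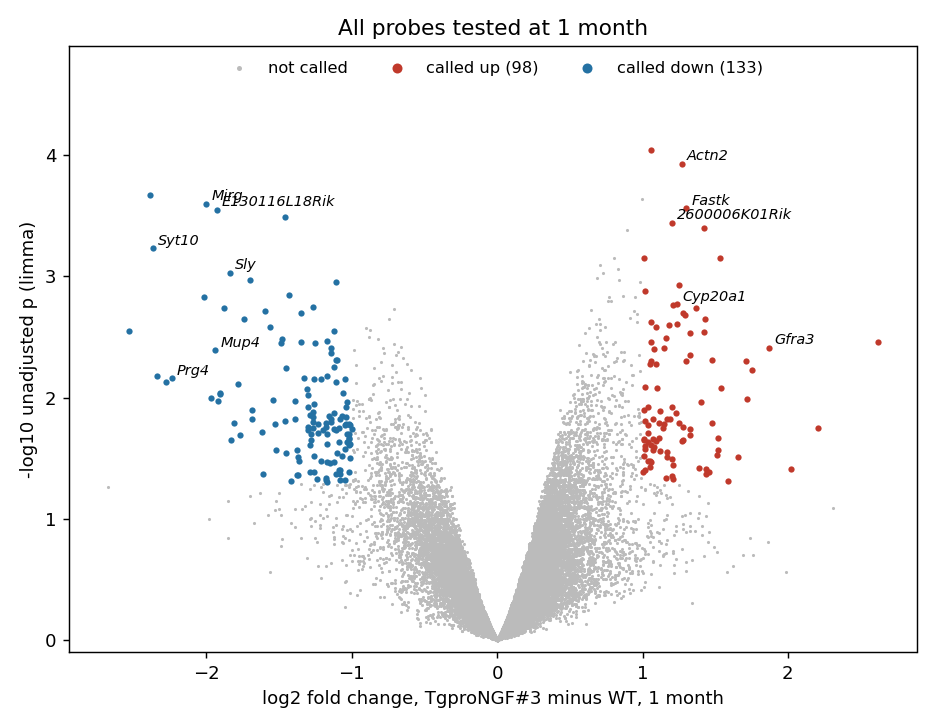
Log2 fold change of TgproNGF#3 over WT at 1 month (x axis) against the negative log10 of the unadjusted limma p (y axis) for 40536 probes, 4 arrays of each genotype; coloured points are the 98 up-regulated and 133 down-regulated probes. Syt10 and Mirg lie far out on the side of the falls.

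Thy1, whose promoter drives the transgene, encodes an abundant surface protein of neurons. The Thy1 probe was bright, at 5.28 to 5.61 in TgproNGF#3 and 5.34 to 5.50 in WT, and these ranges overlapped (log2 fold change 0.09, unadjusted limma p = 0.577, exact permutation p = 0.31).

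Syt10, a calcium sensor of the synaptotagmin family that controls the release of vesicles holding IGF-1 in neurons and is induced by seizures, had the largest fall among genes whose groups did not overlap. Its levels were −3.08, −2.92, −2.90 and −0.84 in TgproNGF#3 and 0.00, 0.39, 0.19 and −0.83 in WT. The groups were apart by several units in replicates 1 to 3, and the replicate 4 arrays were nearly equal. Whether the replicate 4 arrays hold the RNA that their labels name was not tested. The log2 fold change was −2.37 ± 0.48 (SE, n = 4 and 4), a 5.17-fold fall, with an unadjusted limma p of 0.000594 and an exact permutation p of 0.029. Mirg, a noncoding RNA of the imprinted Dlk1-Dio3 region that hosts many microRNAs, was split in the same way by array: −2.42, −2.20, −2.13 and −1.09 in TgproNGF#3 and 0.30, 0.48, 0.28 and −0.91 in WT. Replicate 4 again stood between the others in both genotypes (log2 fold change −2.0 ± 0.36). A second, brighter Mirg probe had a log2 fold change of 0.09, so the fall was a property of 1 of the 2 probes. Tox4, a subunit of the PTW/PP1 phosphatase complex, had levels of −3.12, −3.17, −2.78 and −2.52 in TgproNGF#3 and −1.48, −1.61, −0.71 and −2.41 in WT, replicate 4 of WT being the lowest (log2 fold change −1.35 ± 0.33). A brighter Tox4 probe gave 0.30. E130116L18Rik, a noncoding transcript, fell by 1.93 ± 0.35 on the log2 scale. With both replicate 4 arrays left out, an alternative chosen after these values were seen and therefore no support for them, 182 probes were up-regulated and 273 down-regulated and 3 had an adjusted p below 0.05: Syt10 (log2 fold change −3.16, limma adjusted p = 0.00702), Mirg (−2.60, limma adjusted p = 0.014) and 1 probe of the mm9 region chr4:35106125-35127700 (−3.06, limma adjusted p = 0.0258).

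**Figure D2:**
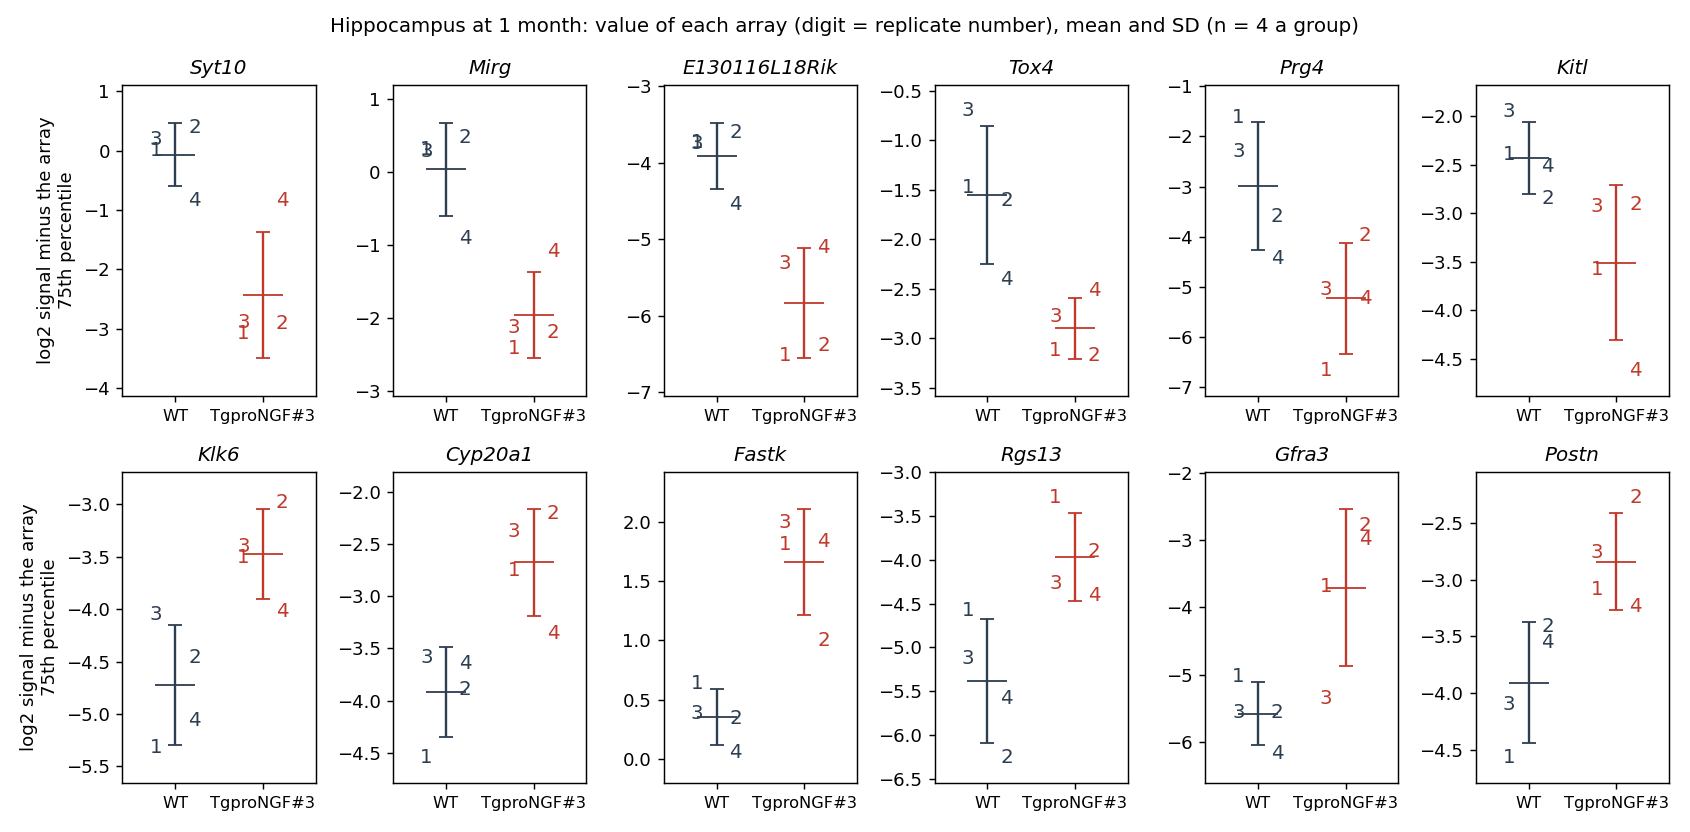
Level of 12 probes on each of the 8 arrays of 1 month (y axis, log2 signal minus the array's 75th percentile); each digit is the replicate number of 1 mouse, and bars are the group mean and SD (n = 4). Replicate 4 of both genotypes lies close together for Syt10, at −0.84 and −0.83.

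Prg4, the lubricin proteoglycan of joint surfaces was down-regulated, with overlapping groups. Its levels were −6.66, −3.97, −5.05 and −5.23 in TgproNGF#3 and −1.62, −3.59, −2.30 and −4.44 in WT (log2 fold change −2.24 ± 0.67 SE, exact permutation p = 0.057). The TgproNGF#3 array of replicate 2 lay above the WT array of replicate 4. Lrg1, a secreted glycoprotein of the acute phase, had TgproNGF#3 levels between −3.58 and −3.16, and its WT levels were −0.33, −2.59, −2.58 and −2.74, so that 1 WT array stood far above the rest (log2 fold change −1.28, and −0.70 without that array, which ended the call). The mean of 8 neutrophil markers was also highest on that WT array, at −2.41, against −4.57 to −3.59 on the other WT arrays and −4.35 to −3.55 on the TgproNGF#3 arrays, and 1 of the 8, Cd177, was up-regulated. The part of such cells in the Lrg1 value was not tested.

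Several down-regulated genes encode signals, receptors or enzymes. Kitl, the ligand of the receptor Kit, had a log2 fold change of −1.08, with levels of −3.58, −2.91, −2.93 and −4.62 in TgproNGF#3 and −2.40, −2.85, −1.95 and −2.52 in WT. The highest TgproNGF#3 array lay just below the lowest WT array, and the call was lost without WT replicate 3 or TgproNGF#3 replicate 4, the latter leaving a log2 fold change of −0.71. Ch25h, the enzyme that makes 25-hydroxycholesterol, had a log2 fold change of −1.05, resting on WT replicates 1 and 3 at −3.29 and −4.26, while WT replicate 2, at −5.06, lay just above the highest TgproNGF#3 array, at −5.17, and WT replicate 4, at −5.20, lay among the TgproNGF#3 arrays. Its call was lost with TgproNGF#3 replicate 1, WT replicate 1 or WT replicate 3 left out. Nr1i3, the xenobiotic receptor CAR, had a log2 fold change of −1.10, Prex2, an exchange factor for Rac, one of −1.21, Ahnak, a giant scaffold protein, one of −1.23, and Sp140, a nuclear body protein of leukocytes, one of −1.12. These are values of single probes: the other 3 Ahnak probes gave −0.26, −0.05 and 0.12 and the other 2 Sp140 probes −0.24 and −0.19, none with an unadjusted p below 0.05. The call was lost for Prex2 and Sp140 without TgproNGF#3 replicate 2, for Ahnak without TgproNGF#3 replicate 1 or WT replicate 3 and for Nr1i3 without any of 3 arrays (TgproNGF#3 replicates 1 and 4, WT replicate 2). Cbln1, a synaptic organiser that bridges neurexins and the delta-type glutamate receptors, had a log2 fold change of −1.07, and its call was lost when any of 4 arrays was left out (TgproNGF#3 replicates 1 and 4, WT replicates 1 and 3). Larger falls in Sly (−1.84), Acer2 (−1.91), Mup4 (−1.94) and Lilra6 (−1.39) rested on 2 or 3 arrays of a genotype, since the other arrays did not stand well above background. The call of Lilra6 was lost with the replicate block and without TgproNGF#3 replicate 2. Other probes of these genes had smaller log2 fold changes, none with an unadjusted p below 0.05: −0.87 and −0.73 for Sly, −0.47 for Acer2, and −0.26 and −0.14 for Lilra6.

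Among genes measured on all 8 arrays, the largest rise was that of Gfra3, the receptor subunit for the GDNF family ligand artemin. Rufy4, measured on 3 TgproNGF#3 and 4 WT arrays, had a larger log2 fold change of 2.21, with overlap, and its call was lost without TgproNGF#3 replicate 2 (1.75). Gfra3 levels were −3.69, −2.79, −5.35 and −3.0 in TgproNGF#3 and −5.03, −5.56, −5.56 and −6.17 in WT, with TgproNGF#3 replicate 3 inside the WT range (log2 fold change 1.87 ± 0.50 SE, exact permutation p = 0.057). Fastk, a mitochondrial RNA-binding kinase-like protein, was among the few bright probes called: 1.81, 1.00, 1.99 and 1.83 in TgproNGF#3 and 0.63, 0.34, 0.39 and 0.06 in WT, every TgproNGF#3 array above every WT array (log2 fold change 1.3). A second Fastk probe went the other way, with a log2 fold change of −0.59 at an unadjusted p below 0.05, so no direction can be given for the gene. Actn2, an actin cross-linker of Z-discs and dendritic spines, had levels of −5.50 to −4.70 in TgproNGF#3 and −6.67 to −6.14 in WT, without overlap (log2 fold change 1.27), and its other probe gave 0.74 at an unadjusted p below 0.05. Rgs13, which shortens G protein signals, had a log2 fold change of 1.42, with levels of −3.29, −3.90, −4.27 and −4.41 in TgproNGF#3 and −4.58, −6.25, −5.13 and −5.58 in WT, without overlap. Cd177, a surface protein of neutrophils, had a log2 fold change of 1.33, and its call was lost without TgproNGF#3 replicate 4. Actn2, Rgs13, Gfra3, Syt10, Tox4, Prg4 and Klk6 had the same direction and an unadjusted p below 0.05 in every alternative that gave a test.

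Klk6, a serine protease made by oligodendrocytes that can cut myelin and matrix proteins, was up-regulated at −3.51, −2.98, −3.40 and −4.02 in TgproNGF#3 against −5.32, −4.46, −4.05 and −5.06 in WT. The groups did not overlap, but the lowest TgproNGF#3 array and the highest WT array were almost equal (log2 fold change 1.24 ± 0.31 SE, n = 4 and 4, unadjusted limma p = 0.00246, exact permutation p = 0.029). Klk8, a protease of hippocampal neurons that acts on synaptic adhesion proteins, had a log2 fold change of 0.70, under the 2-fold threshold. Postn, a matricellular protein, had levels of −3.09, −2.28, −2.76 and −3.24 in TgproNGF#3 and −4.56, −3.41, −4.10 and −3.55 in WT, with no overlap (log2 fold change 1.06, a call lost without TgproNGF#3 replicate 2 or WT replicates 1 or 3). Col6a3, a chain of collagen VI, had 1.02, a call lost without any of 4 arrays (TgproNGF#3 replicates 2 and 3, WT replicates 1 and 3). Neat1, the noncoding RNA around which paraspeckles form, was up-regulated by 2 of its probes (1.08 and 1.04) and the brightest gave 0.97, under the 2-fold threshold. The called probes were lost without TgproNGF#3 replicate 3 or WT replicates 2 or 3, and the brightest lost its p below 0.05 without these or TgproNGF#3 replicate 1. Among genes with more than 1 probe, 15 of 19 other probes of 14 up-regulated genes had the same sign, where 63.8% of all probes were above 0. Of these, 7 had an unadjusted p below 0.05, 4 of them Neat1 probes of a single transcript, and 1 more, the Fastk probe, had it in the opposite direction. For 12 down-regulated genes, 12 of 18 other probes had the same sign and 0 had an unadjusted p below 0.05.

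Mice of 3 months, which played no part in the 1-month calls, were used to see which calls recurred. Of the 133 falls, 58 could be tested at 3 months, and 33 (56.9%) were down-regulated again, against 6.13% of all 33548 probes tested at both ages. Of these 58, 49 had the same sign (62.7% of all probes were lower at 3 months), 27 had an adjusted limma p below 0.05 and 2 were up-regulated, Prg4 and Slc22a2. Of the 98 rises, 52 could be tested and 4 (7.69%) were up-regulated again, against 0.644% of all probes. With the replicate block at 1 month, 8 rises and 39 falls were called again; with 1 array left out, the share of tested falls that recurred was 29.6% at its lowest, with TgproNGF#3 replicate 2 omitted, 39.1% with WT replicate 1 omitted and 73.6% at its highest, with TgproNGF#3 replicate 4 omitted, and the share of rises was 3.85% and 13.2% when TgproNGF#3 replicates 2 and 4 were omitted in turn. The recurring falls numbered 17 (without WT replicate 3) to 67 (without TgproNGF#3 replicate 4) and the recurring rises 2 (without TgproNGF#3 replicate 2) to 16 (without TgproNGF#3 replicate 4). Those 4 rises were Klk6 and 3 probes of the mm9 regions chr1:58443698-58449898 and chr12:72103832-72116875. The median 3-month log2 fold change was −1.21 for the falls, −0.12 for all probes and 0.44 for the rises.

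The 33 probes down-regulated at both ages held 13 named genes, 16 region probes and 4 others. Their mean level was −4.39, −4.82, −4.06 and −3.68 on the TgproNGF#3 arrays of 1 month and −2.61, −3.19, −2.22 and −3.36 on the WT arrays. At 3 months it was −4.96, −4.70, −4.50 and −4.61 in TgproNGF#3 and −2.13, −2.94, −2.96 and −2.50 in WT. Lower TgproNGF#3 means at both ages follow from the choice of these probes on the same arrays. At 1 month replicate 4 had the smallest gap between the genotypes. Syt10 had a 3-month log2 fold change of −2.98 (limma adjusted p = 0.0224), with levels of −4.58, −2.36, −2.36 and −5.03 in TgproNGF#3 and 0.15, −0.44, −1.37 and −0.75 in WT. All 4 TgproNGF#3 arrays of 3 months lay below all 4 WT arrays. Also down-regulated again were Mirg (−2.01, limma adjusted p = 0.0234), E130116L18Rik (−1.77, 0.00873), Tox4 (−2.09, 0.0133), Sp140 (−2.90, 0.00857), Prex2 (−2.36, 0.0223) and Ch25h (−2.05, 0.00557), values in brackets being the 3-month log2 fold change and the adjusted limma p. The brighter second probes of Mirg and Tox4 gave −0.13 and 0.05 at 3 months, and the E130116L18Rik value rests on 2 TgproNGF#3 arrays. Kitl, Nr1i3, Ahnak, Klra1, Ankrd61 and Catsper4 complete the list. The 1-month call of Klra1 was lost when any of 5 arrays was left out, that of Catsper4 when any of 4 was and that of Ankrd61 without TgproNGF#3 replicate 3. Klk6 had a 3-month log2 fold change of 1.96 (limma adjusted p = 0.00572).

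**Figure D3:**
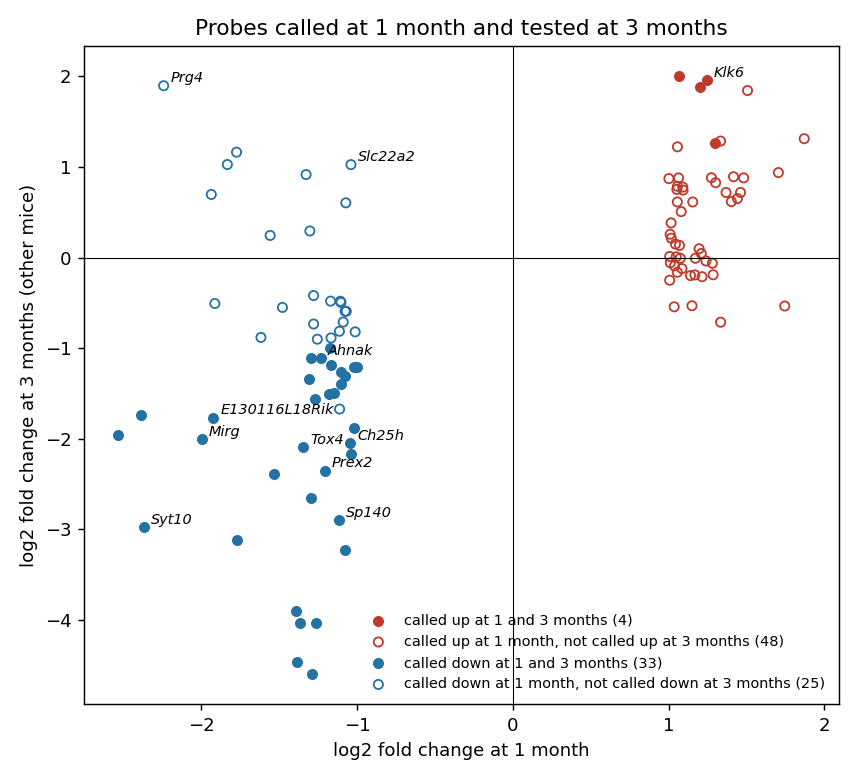
Log2 fold change at 1 month (x axis) against that at 3 months (y axis) for the 110 probes called at 1 month that were tested at both ages, in other mice at each age; the thin lines mark 0, and filled points were called in the same direction at both ages. Of 58 falls, 49 lie below 0 at 3 months, and Prg4 and Slc22a2 lie well above it.

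A difference between the ages was tested directly as an interaction. Over 33548 probes, 587 had an adjusted limma p below 0.05 for the log2 fold change at 1 month minus that at 3 months, 576 of them with the higher value at 1 month. Of the 110 calls of 1 month, 5 did: Prg4 (−2.24 at 1 month and 1.90 at 3 months, difference −4.14, limma adjusted p = 0.0377), Slc22a2, an organic cation transporter (−1.04, a call lost without any of 4 arrays, and 1.03, limma adjusted p = 0.0137), 1810009N02Rik (limma adjusted p = 0.0246) and 2 probes of the mm9 region chr14:65431652-65437902, these 5 being named after their values were seen. The number of probes fell to 368 without TgproNGF#3 replicate 3, 382 when WT replicate 4 was left out and 391 when WT replicate 2 was. Syt12, another synaptotagmin, went from 0.57 at 1 month to −2.13 at 3 months (limma adjusted p = 0.000333), and Spock1, the proteoglycan testican-1, from 0.45 to −2.25 (limma adjusted p = 0.000867). Neither was called at 1 month.

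Few of the 1-month calls were made again in the females of 12 months. Of 67 falls tested there, 2 were down-regulated (Ankrd61 and 1600022D10Rik; 0.994% of all 34019 probes) and 1 was up-regulated (Gm1987). Of 42 rises, 2 were up-regulated (Xlr3b and Cyp20a1, 0.312% of all) and 3 down-regulated: Postn (−1.21), Col6a3 (−1.58) and Prx, all named after their values were seen. The 1-month call was lost without any of 4 arrays for Xlr3b, any of 3 for Gm1987 and TgproNGF#3 replicates 2 or 4 for Prx. Those of Cyp20a1 and 1600022D10Rik were kept with each array left out. Syt10 had a log2 fold change of −0.72 at 12 months, with TgproNGF#3 levels of 2.01, −2.19 and 1.2 and WT levels of 0.51, 1.3 and 1.38. Only 1 of these TgproNGF#3 arrays lay below all WT arrays. The interaction of 1 against 12 months gave 0 of 34019 probes with an adjusted limma p below 0.05 and 2134 with an unadjusted p below 0.05.

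Cyp20a1, an orphan cytochrome P450, was up-regulated at 1 month (1.24) and 12 months (1.39) and had −0.04 at 3 months. Its 1-month levels were −2.76, −2.21, −2.38 and −3.36 in TgproNGF#3 and −4.54, −3.89, −3.59 and −3.65 in WT, without overlap. Ankrd61, a protein of ankyrin repeats, had log2 fold changes of −1.18, −1.51 and −1.03 at 1, 3 and 12 months. At 1 month its levels were −4.82, −4.84, −4.98 and −2.95 in TgproNGF#3 and −3.20, −3.03, −3.56 and −3.08 in WT, so that TgproNGF#3 replicate 4 lay above every WT array.

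Gene lists of the pathways around the transgene were then counted, with 1 probe per gene. Of all 17249 genes, 491 (2.85%) had an unadjusted p below 0.05, 366 higher and 125 lower, and the median log2 fold change was 0.07. The neurotrophin ligands Bdnf, Ntf3 and Ntf5 were all above 0, none with an unadjusted p below 0.05; Bdnf, the activity-dependent neurotrophin, had 0.17 and Ntf3 had 0.32. Of 16 neurotrophin receptors and adaptors, 13 were above 0 (median 0.12) and none had an unadjusted p below 0.05. Ngfr, which encodes p75NTR, had −0.05 and Sort1, sortilin, 0.00. Among 14 genes of proneurotrophin processing, 1 had an unadjusted p below 0.05: Plau, the urokinase that activates plasmin, a protease that cuts neurotrophin precursors, with −1.12 on 3 and 2 arrays, a call lost without TgproNGF#3 replicates 1 or 2. Furin itself had 0.00.

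Genes of neuron activity and transmission were counted next. None of 27 activity-regulated transcription factors had an unadjusted p below 0.05 (median −0.08), Fos having −0.30 and Egr1 0.11. Of 33 activity-regulated effectors, 1 had an unadjusted p below 0.05 with a higher and 2 with a lower level in TgproNGF#3. The higher one was Nptx2, a secreted pentraxin that gathers AMPA receptors at synapses on interneurons, with 0.59 on its brightest probe, unadjusted limma p = 0.00732, exact permutation p = 0.029, and no overlap. The lower ones were Syt10 and Cort. Of 25 neuropeptides, 3 had an unadjusted p below 0.05, all lower: Crh, Cort and Tac1. Crh, the stress peptide corticotropin-releasing hormone of some hippocampal interneurons, had levels of −3.58, −3.26, −3.29 and −3.68 in TgproNGF#3 and −2.35, −3.08, −2.48 and −3.03 in WT (log2 fold change −0.72), all TgproNGF#3 arrays being below all WT arrays. Cort, cortistatin, also of interneurons, had −0.80, −0.34, −0.15 and −0.51 against 0.56, −0.10, 0.57 and −0.06, again without overlap (log2 fold change −0.69). Tac1, the precursor of substance P, had −0.56, which lost its p below 0.05 when any of 6 arrays was left out.

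Of 30 genes of GABA synthesis and interneuron identity, 1 had an unadjusted p below 0.05, Nkx2-1, the factor that specifies interneurons in the embryonic medial ganglionic eminence (0.85), which lost it without WT replicate 1 and had 0.18 in its lowest setting. Gad1 and Gad2, which make GABA, had 0.09 and 0.02, Pvalb 0.05 and Sst −0.02. None of 16 GABA-A receptor subunits and none of 9 chloride and GABA transporters did. Of 16 synaptotagmins, Syt10 and Syt12 had an unadjusted p below 0.05, in opposite directions. Of 30 genes of vesicle release 1 did, the active zone protein Rims1 (−0.85), and of 21 ionotropic glutamate receptor subunits and partners 2 did, Cbln1 and the kainate receptor subunit Grik2 (0.62), the latter lost when any of 4 arrays was left out and Rims1 when any of 3 was. Chrm3, a muscarinic receptor, had 0.49, the 1 such gene of 14 for acetylcholine, and lost its p below 0.05 without TgproNGF#3 replicate 1 or WT replicate 3.

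Matrix genes were mixed. Of 40 collagen chains 28 were above 0 (median 0.16), and 3 had an unadjusted p below 0.05, Col6a3, Col9a1 and Col5a3, all higher, while 11599 of all 17249 genes were above 0. Col9a1 lost its p below 0.05 when any of 5 arrays was left out and Col5a3 when any of 4 was. Of 28 other proteoglycans, 4 were higher at an unadjusted p below 0.05, Spock1, the glypicans Gpc3 (0.55) and Gpc4 (0.50), and Aspn (0.47), and 1 was lower, Prg4. Among 15 hyalectans and genes of the perineuronal net 1 was higher, the link protein Hapln4 (0.64), while Acan had 0.38. Aspn lost its p below 0.05 when any of 6 arrays was left out, Spock1 when any of 4 was, Hapln4 when any of 3 was and Gpc3 without WT replicate 4. Of 36 chemokines and cytokines, 3 were higher, Cxcl5 (1.52, a call lost without any of 4 arrays), Ccl6 (0.86) and Ccl3 (0.62), and 2 lower, Kitl and Ch25h, of which Ch25h is an enzyme and neither a chemokine nor a cytokine. Medians of several lists near 0 changed sign with the scaling: those of GABA synthesis, laminins, vesicle release, chemokines and steroid metabolism fell below 0 with dim spots kept or in the series matrix, and those of neuropeptides, synaptotagmins, effectors, transporters and GDNF genes rose above 0 with median alignment.

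**Figure D4:**
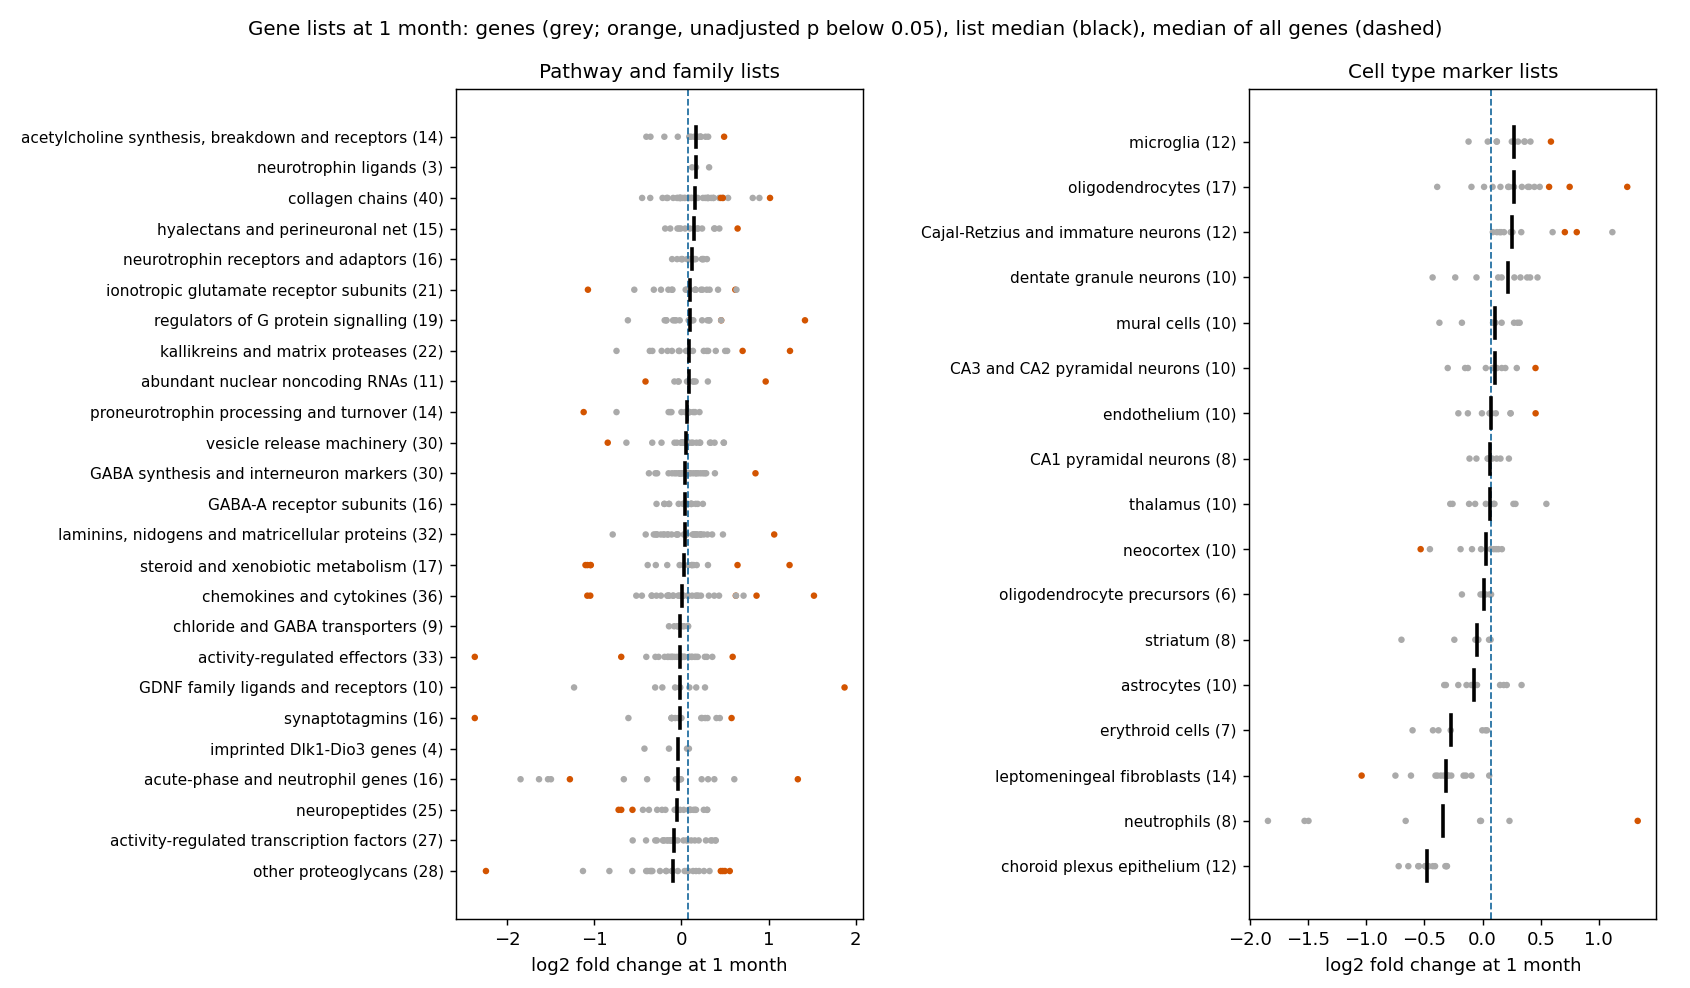
Log2 fold change of TgproNGF#3 over WT at 1 month (x axis) for each tested gene of each list (rows), 1 probe per gene, with the list median as a bar; orange points have an unadjusted limma p below 0.05 and the dashed line is the median of all genes. Medians lie between −0.48 (choroid plexus) and 0.27 (microglia and oligodendrocytes).

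Markers of the cell types of the hippocampus and its neighbours were read in the same way; in bulk RNA, fewer cells of a type and less RNA per cell cannot be told apart. All 10 dentate granule, 8 CA1 and 10 CA3 and CA2 markers were measured, as were most markers of neocortex, thalamus and striatum, so that measured markers alone do not tell the hippocampus from its neighbours. Oligodendrocyte markers were above 0 in 15 of 17 genes (median 0.27), with Klk6, Opalin (0.75) and Aspa (0.57) at an unadjusted p below 0.05, these being named after their values were seen. Their mean level ran from 1.36 to 1.81 on the TgproNGF#3 arrays and from 0.87 to 1.48 on the WT arrays, with overlap between the groups. Within same-numbered pairs, which nothing in the labels joins, it was higher in TgproNGF#3 in all 4, at 1.36 against 0.87, 1.6 against 1.48, 1.81 against 1.19 and 1.44 against 1.4. With 4 pairs the smallest two-sided permutation p is 0.125, so this count could not pass 0.05. Opalin and Aspa mark myelinating oligodendrocytes. At 3 months the median was 0.37, and Aspa was up-regulated (1.04, limma adjusted p = 0.00401), while at 12 months the median was −0.24. Microglial markers were above 0 in 11 of 12 genes (median 0.27), and their mean level did not overlap between genotypes (1.5 to 1.68 against 1.26 to 1.38), though only Tyrobp, a signalling adaptor of microglia, had an unadjusted p below 0.05 (0.59). Markers of Cajal-Retzius cells and immature neurons were above 0 in 12 of 12 genes (median 0.25), with mean levels of −3.27 to −2.70 against −3.53 to −3.30; Top2a (0.71), an enzyme of dividing cells, and Igfbpl1 (0.81) had an unadjusted p below 0.05, again chosen after their values were seen. These 3 medians stayed above 0 under each scaling run. So did the median of all probes, at 0.03 with dim spots kept, 0.12 with median alignment, 0.10 with quantile normalization and 0.003 in the series matrix, so 0 is not a neutral baseline. At 3 and 12 months the microglial median was 0.02 and −0.22, and that of Cajal-Retzius cells and immature neurons −0.18 and −0.19.

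Markers of tissue next to the hippocampus varied between arrays. All 12 choroid plexus markers were below 0 (median −0.48), none with an unadjusted p below 0.05, and their mean level was −1.12, 1.79, −2.39 and −0.86 in TgproNGF#3 and −2.48, 1.48, −0.94 and 1.25 in WT. Both genotypes spanned some 4 log2 units, and with 1 array left out the median ran from −1.29 to 0.17. Leptomeningeal markers were below 0 in 13 of 14 genes (median −0.32), 1 of them called, Slc22a2. Whether such tissue had a part in the fall of Slc22a2 was not tested. Markers of thalamus, striatum and neocortex had medians of 0.06, −0.04 and 0.03.

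Of 3849 mm9 regions with tested probes, 77 had a called probe and 10 had 2 or more. The region chr14:65431652-65437902, plus strand, had 4 of 7 probes down-regulated (median log2 fold change −1.08). On each of these 4 the genotypes overlapped at 1 month (exact permutation p from 0.086 to 0.17). Replicate 4 was at −2.22 in TgproNGF#3 and −2.15 in WT on the probe with the largest fall. At 3 months all 4 probes tested were down-regulated, with a median of −4.25. At 12 months the median was −0.03. The region chr2:119412770-119435110, minus strand, had all 10 probes below 0 (median −0.61), 3 of them called, and at 3 months 5 of 5 called with a median of −2.17. In chr7:67111261-67120697, plus strand, all 4 probes were below 0 and 2 were called (median −1.15). On the side of the rises, chr1:58443698-58449898, minus strand, had 3 of 5 probes up-regulated at 1 month (median 1.07) and a median of 1.88 at 3 months. The called probes of the chr2 and chr1 regions overlapped between genotypes as well. Probes of a region share their transcript and are not independent of each other. The single probe of chr4:35106125-35127700, minus strand, singled out after its values were seen, lay at −5.48, −6.10, −5.70 and −4.52 in TgproNGF#3 and −2.54, −3.12, −2.44 and −4.16 in WT, with replicate 4 again closest. No gene name was given to these regions here.

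A few probes stood above background in 1 genotype only. Kif15, a mitotic kinesin, was well above background on TgproNGF#3 arrays alone, at least 1.96-fold higher than the bound in WT, and Clec5a, a myeloid receptor, on WT arrays alone, at least 2.36-fold higher. The bound compares the mean of the bright group with the lowest signal that stood well above background on the arrays of the other. Each genotype had 4 such probes, which had no test, and the other named ones were Ttll13 (at least 1.15-fold higher in TgproNGF#3) and Hjurp (at least 1.9-fold higher in WT).

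The arrays themselves were alike across genotypes. From 69.76% to 80.27% of the spots were well above background on the 8 arrays. Correlations of levels across probes ran from 0.981 to 0.9916 between genotypes, from 0.9834 to 0.9896 within TgproNGF#3 and from 0.9768 to 0.9945 within WT, and the first principal component (38.9% of the variance) set replicates 1 and 3 of both genotypes apart from replicates 2 and 4. Replicates 1 and 3 lay in the odd slide columns and replicates 2 and 4 in the even ones, so the same component split odd from even columns. TgproNGF#3 samples lay in columns 3 and 4 of the slide and WT samples in columns 1 and 2, so that slide column and genotype cannot be told apart.

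**Figure D5:**
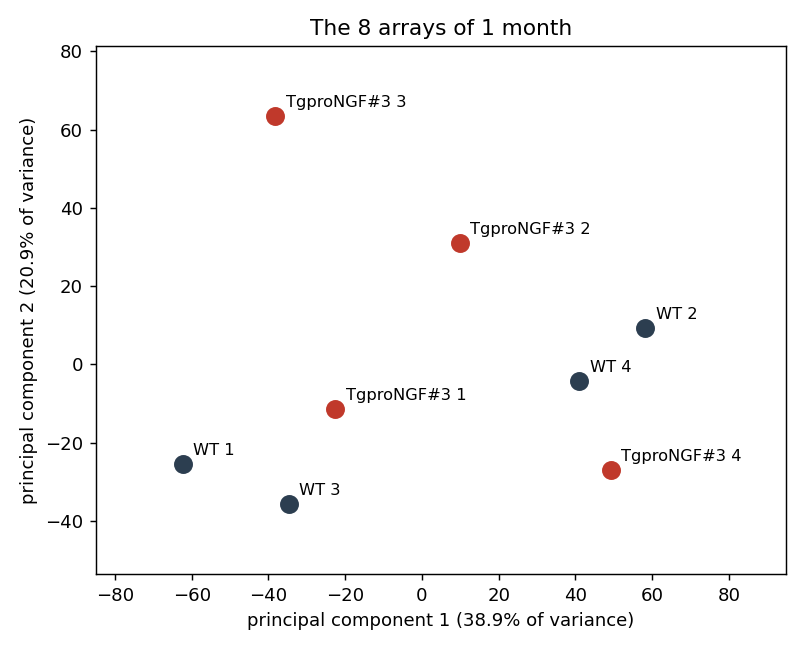
The 8 arrays of 1 month on the first 2 principal components of all probes measured on every array (x axis, 38.9% of the variance; y axis, 20.9%), coloured by genotype and numbered by replicate. Replicates 1 and 3 of both genotypes lie to the left and 2 and 4 to the right.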

How the data were processed

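Total RNA of the right hippocampus was labelled with 1 colour and hybridised to Agilent whole mouse genome arrays of 8 per slide; arrays were scanned and read with Feature Extraction 10.7.3.1 per the file headers. The intensity values the authors deposited are processed signals, already corrected for background. The series matrix holds log2 values that the authors deposited, with their alignment to the 75th percentile. The paper states that features flagged as near background were removed. On how many arrays a feature had to pass is not stated, and the matrix served as an alternative only.

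From the 59305 non-control spots, those flagged as outliers or as not clearly above background were dropped, log2 intensities were set relative to the array's 75th percentile, and spots of 1 probe were averaged. Probes with at least 2 values per group were fitted with limma 3.58.1 (lmFit and eBayes, two-sided, R 4.3.3), with Benjamini-Hochberg adjustment over all 40536 probes. Exact permutation tests covered all 70 labellings. Arrays limit the precision by their number, 4 per genotype. Of 55681 probes, 28026 were named through RefSeq (GRCm38.p6), 179 through the study's own table of differentially expressed mRNAs and 5, of Neat1, by the name in the files. A probe without a RefSeq match, Neat1 apart, was thus named only if the study had listed it. The counts of named calls and of their second probes lean on that list. Region probes keep their mm9 coordinates. Nothing in the labels joins same-numbered mice, but same-numbered arrays shared a slide row and deviated together (r = 0.511, 0.272, 0.191 and 0.208 over 36103 probes). So did 3 differently numbered pairs (r = 0.356, 0.253 and 0.238). In each of these pairs both arrays lay in odd slide columns or both in even ones. Every pair of an odd with an even column had a negative r, the lowest being −0.565. TgproNGF#3 replicate 3 with WT replicate 1, both in odd columns, had −0.0387. The shared deviation thus went with odd against even column, and not with replicate number alone. Fits blocked by replicate number and by odd against even column are given. Genes are named by a rule: Thy1, Syt10 and Prg4; the 12 largest rises and falls without overlap; calls that recurred at another age; and up to 4 members per gene list with an unadjusted p below 0.05. In lists without such a p the rule took the brightest members. Some genes outside the rule, such as Rufy4, Furin, Gad1, Pvalb and Acan, are named as well. Members, rule and lists were chosen with earlier results of these data known. Alternatives covered filters, scaling, background correction (normexp, offset 50), the series matrix, blocks by replicate, row and column, and leaving out arrays. Some results of the rule and lists are not reported here. The scripts were tested on simulated data. Each mouse is a separate sample of its group.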

Additional observations from a re-analysis of the deposited data

Results flagged for a closer look

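Among 109 groups of 4 arrays of named genes, 7 had 1 array far from the other 3, which is near the share of about 1 in 20 that chance gives. Syt10 was at −0.839 in TgproNGF#3 replicate 4, with the others between −3.08 and −2.90, and Ankrd61 was at −2.95 there, with the others between −4.98 and −4.82. In WT replicate 4, Mirg was at −0.907 (others 0.28 to 0.48), E130116L18Rik at −4.55 (others −3.75 to −3.60), Gpc3 at −3.33 (others −2.92 to −2.86) and 1700012P22Rik at −7.07 (others −6.04 to −5.85). Lrg1 was at −0.327 in WT replicate 1, with the others between −2.74 and −2.58. Of the 7, 6 lay in the replicate 4 arrays, 2 in TgproNGF#3 and 4 in WT. With a number flagged near the chance share, no property of replicate 4 is read from this, and none was tested.

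For named genes and calls of 1 month, the log2 fold change differed from that at 3 months with an adjusted limma p below 0.05 in 7 probes. The difference, 1 month minus 3 months, was 2.70 for Syt12 (SE 0.268, limma adjusted p = 0.000333), 2.70 for Spock1 (SE 0.356, limma adjusted p = 0.000867), 2.05 for 1810009N02Rik (limma adjusted p = 0.0246), −2.07 for Slc22a2 (limma adjusted p = 0.0137) and −4.14 for Prg4 (SE 0.974, limma adjusted p = 0.0377). In the mm9 region chr14:65431652-65437902, 2 probes that were down-regulated at both ages differed by 3.31 (limma adjusted p = 0.0299) and 3.08 (limma adjusted p = 0.0429), the fall being deeper at 3 months. Age cannot be told apart from slide in these differences.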

How the results depend on the processing

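The counts of calls were the least stable values. Up-regulated probes numbered 98 here, 208 with dim spots kept, 63 with a value required on all 8 arrays, 57 with the percentile over all spots, 167 with arrays aligned to the median, 9 with normexp, 12 in the series matrix, 577 with at least 1 value per group, 152 with odd against even slide column as a block and 465 at a fold of 1.5. Down-regulated probes numbered 133 here, 73 with a value required on all 8 arrays, 45 with normexp, 39 in the series matrix and 419 at a fold of 1.5. Paired by replicate number as a block, they were 221 and 231, with 8 recurring rises. With both replicate 4 arrays left out they were 182 and 273, with 89 recurring falls and 14 recurring rises; this setting, the column block and the recurrence counts were chosen after seeing the data. With 1 array left out, up-regulated probes ranged from 47 to 224, down-regulated probes from 53 to 262, recurring falls from 17 to 67, recurring rises from 2 to 16 and probes that differed between 1 and 3 months from 368 to 626 (main 587). Recurring falls were 18 in the series matrix; recurring rises were 15 with dim spots kept, 9 with median alignment, 8 with quantile normalization and 2 in the series matrix. The cause of these shifts was not tested. With dim spots kept, Vwa5b1 turned to 0.183 and Npr1 to −0.038. Over the other settings of the named genes, 1272 values kept direction and side of the threshold, 186 lost p below 0.05 and 6, within slide rows, moved: in rows 1 and 2, Mirg had −2.7 and −1.3, E130116L18Rik −2.79 and −1.06, and 1600022D10Rik −0.54 and −2.11. No probe had an adjusted p below 0.05 in limma under any setting but the one without both replicate 4 arrays, and signal over background limits the dim probes that carry most calls.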
